A study of Mus musculus with 16 samples.

Results

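The data concern 34 antiviral interferon-stimulated genes in Paneth cells, the secretory cells at the base of the small intestinal crypts. The genes were chosen by name, as members of the antiviral programme that interferons switch on, out of 55414 genes in a table of read counts. The cells were sorted by flow cytometry from intestinal crypts of C57BL/6J mice. Each mouse was injected with PBS, the vehicle, or with DEX, and 1 h later with PBS or tumour necrosis factor (TNF). Sampling followed at 3 h from the later injection. DEX commonly stands for dexamethasone, a glucocorticoid drug, but the labels give the abbreviation alone. With 4 libraries in each of 4 groups there were 16 libraries. Mice of the group DEX+TNF received DEX and then TNF, those of DEX+PBS received DEX and then vehicle, those of PBS+TNF vehicle and then TNF, and those of PBS+PBS vehicle at both times. No knockout or transgene is named for these mice. The question was which of these genes keep and which lose their TNF induction when DEX is given first.

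Interferons bind receptors on the cell surface, Janus kinases phosphorylate STAT proteins, and these join IRF9 to form a factor that binds the interferon-stimulated response element (ISRE) in target promoters. The products sense viral nucleic acids (Ifih1, Dhx58, Zbp1, Eif2ak2), degrade or block foreign RNA (the Oas and Ifit genes), modify proteins with ISG15, ubiquitin or ADP-ribose (Isg15, Herc6, Usp18, Parp9, Dtx3l, Parp14, the Trim genes) or interfere with replication and budding (Rsad2, Samhd1, Bst2). TNF acts through NF-kB, which turns on another set of genes, among them Irf1, whose product can bind ISRE-like elements. Glucocorticoids act through the glucocorticoid receptor and dampen many NF-kB and interferon responses. In the crypt, the antiviral programme is best known as a response to type III interferon, whose receptor is largely confined to epithelial cells.

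The letters GAAANNGAAA, the core of an ISRE, were searched on both strands in the window from 250 bases before to 50 bases after the annotated start of every protein-coding gene (GRCm39, GENCODE M39). They were present in 17 of the 34 member promoters, or 50%, and in 835 of 21757 promoters, or 3.84%. The letters TTCNNNGAA, bound by STAT dimers, were in 8 of 34 member promoters (23.5%) against 8.82% of all promoters, and the NF-kB letters GGGANNTTCC in 1 of 34 (2.94%), that of Ifit2, against 1.57% of all promoters. A match is a description of the letters and no evidence of binding, and the ISRE and STAT letters can overlap. The windows below are shown because these genes carry the contrasts described further on. They run 5′ to 3′ along the strand of the gene, with the ISRE letters in capitals, and where the capitals begin with TTTC the element lies on the other strand. The first 4 belong to genes that were below the range of the PBS+TNF libraries in all DEX+TNF libraries. The next 3 belong to genes that were close to, within or above that range in DEX+TNF libraries 1 and 2, and the last to the ubiquitin-like modifier ISG15.
Ifit1, chr19:34618194-34618223, plus strand: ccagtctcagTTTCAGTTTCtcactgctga
Usp18, chr6:121222796-121222825, plus strand: ggatctagggGAAAACGAAAgcttggcggt
Rtp4, chr16:23428611-23428640, plus strand: gacagaccggGAAATGGAAActgaaagaac
Trim30a, chr7:104114417-104114446, minus strand: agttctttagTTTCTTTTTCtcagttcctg
Zbp1, chr2:173060742-173060771, minus strand: aaagtttcatTTTCTCTTTCtttgaaaagc
Oas3, chr5:120915780-120915809, minus strand: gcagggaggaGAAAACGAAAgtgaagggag
Eif2ak2, chr17:79189964-79189993, minus strand: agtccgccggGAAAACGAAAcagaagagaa
Isg15, chr4:156285322-156285351, minus strand: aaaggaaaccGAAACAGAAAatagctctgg

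Only windows that hold the letters are shown, so their presence on both sides of the contrast is no result. Of the 17 members called with TNF after PBS (below), 9 held the ISRE letters in this window, and of the 17 other members 8 did. Parp9, Dtx3l, Parp14 and Herc6 held none there. Parp9 and Dtx3l lie on opposite strands of chromosome 16, with 681 bases between their starts, and overlap there.

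Library totals ran from 7286307 to 15832111 counts, and 6 Paneth cell markers, among them the lysozyme gene Lyz1, took 40.8% to 60.9% of the counts in every library. Values below are normalized CPM, that is, counts divided by library sizes scaled by trimmed mean of M-values (TMM). Libraries DEX+TNF 3 and 4 stood apart. Nfkbia, a direct TNF target, was at 277 to 337 CPM in the PBS+TNF libraries and at 330 and 382 CPM in DEX+TNF 1 and 2, but at 28.3 and 41.0 CPM in DEX+TNF 3 and 4, near the 15.6 to 27.3 CPM of the mice without TNF. For Cxcl10, a chemokine gene that TNF and interferon induce, DEX+TNF 1 and 2 held 26.1 and 33.0 CPM, DEX+TNF 3 had no count and DEX+TNF 4 held 0.150 CPM. The DEX-induced kinase gene Sgk1 was at 24.8 to 115 CPM in all 4 DEX+TNF libraries, against 1.11 to 7.94 CPM in the 8 libraries without DEX. DEX+TNF 4 had the highest sums of tuft (423 CPM), enterocyte (210 CPM), stem (1219 CPM), cycling (121 CPM) and leukocyte markers (22.04 CPM), and DEX+TNF 3 the second highest tuft (119 CPM) and leukocyte sums (5.82 CPM). DEX+TNF 1 and 2 had 0.726 and 0.162 CPM of tuft markers and no count of a leukocyte marker, and the 3 T cell markers were at 0 in all libraries. The enteroendocrine sums were 0.0807, 0, 15.9 and 6.48 CPM in DEX+TNF 1 to 4, and DEX+PBS 4 held 9.53 CPM. Other lists went another way. The myeloid sums were 71.1, 71.6, 91.15 and 21.2 CPM in DEX+TNF 1 to 4, and the goblet sums 3877, 5856, 2568 and 2263 CPM. The part of other cells in the results below, and the reason for the low TNF response of DEX+TNF 3 and 4, were not tested. The edgeR counts of called members in the comparisons with DEX+TNF are therefore given with and without them. Leaving them out selects libraries by their TNF response, and so favours calls of a TNF effect after DEX. In such bulk samples, fewer cells of a type and less RNA per cell cannot be told apart.

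**Figure D1:**
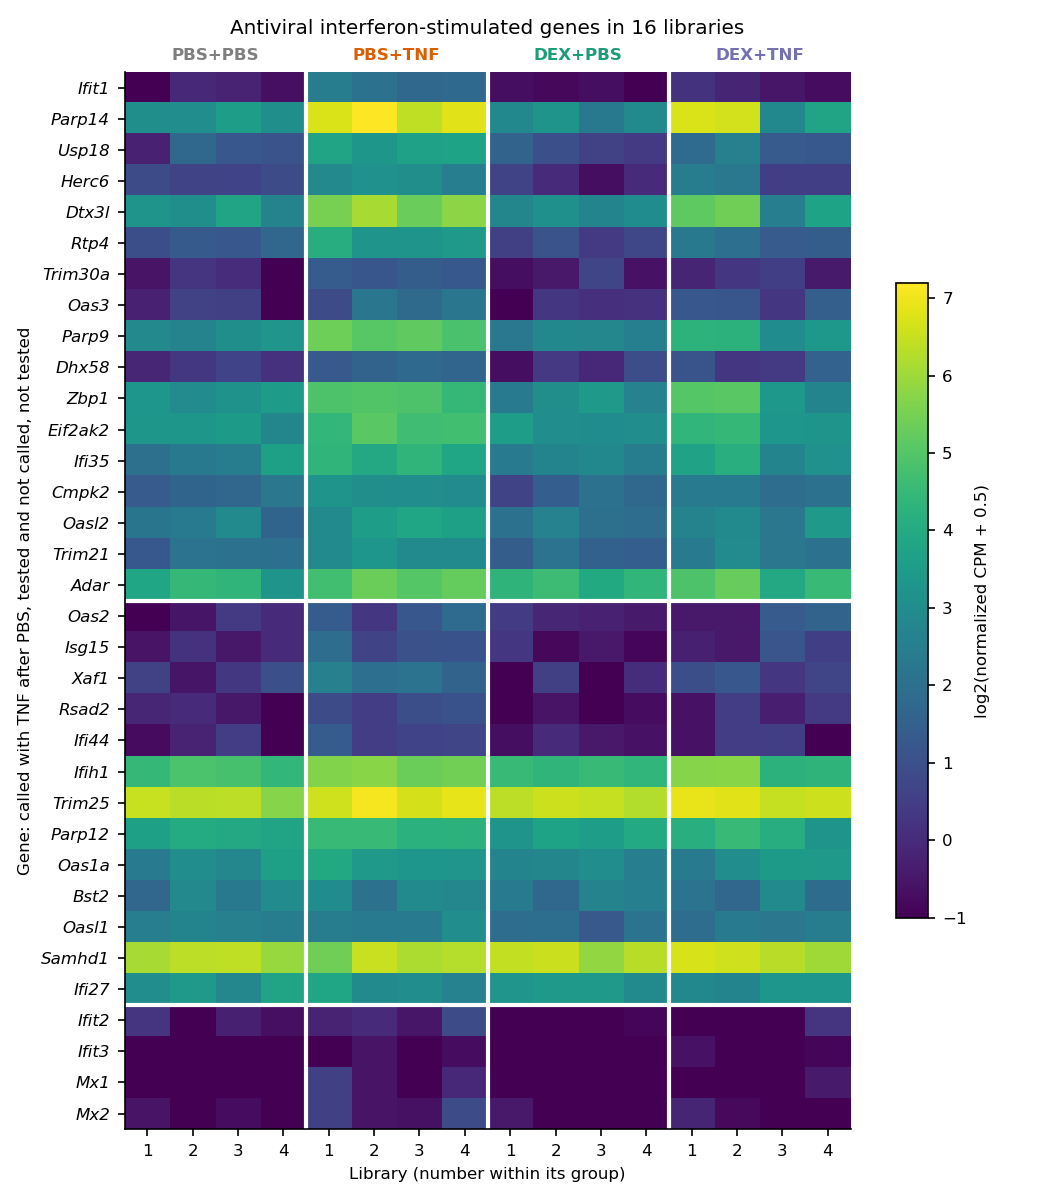
Level of all 34 genes, as log2 of normalized CPM plus 0.5, in the 16 libraries (columns, by group), with rows split by white lines into the 17 genes called with TNF after PBS, the 13 tested and not called, and the 4 not tested. Over the first block the median level in DEX+TNF 1 to 4 is 63.8%, 62.1%, 32.4% and 28.1% of the PBS+TNF mean.

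Of the 34 genes, 30 passed the low-count filter and were tested. Ifit2, Ifit3, Mx1 and Mx2 did not pass. Ifit3, an RNA-binding antiviral protein, had no count in the PBS+PBS and DEX+PBS libraries and at most 0.181 CPM elsewhere. Mx1, of the dynamin-like GTPase family, had no count in those 8 libraries either and 0.963, 0.181, 0 and 0.446 CPM in PBS+TNF 1 to 4. Of the DEX+TNF libraries only DEX+TNF 4 held Mx1, at 0.249 CPM. Its relative Mx2 stayed at or below 1.34 CPM and Ifit2 likewise, both highest in PBS+TNF 4. Reads of Ifit3 and of its near-identical copy Ifit3b may have been split or dropped, since the handling of reads matching several genes is not stated, and the same holds for Oas1a and Trim30a, which have close relatives. Ifit1, Isg15, Rsad2, Ifi44 and Trim30a passed only through the PBS+TNF libraries. Per kilobase of exon, the most abundant members without TNF were Trim25, at a mean of 13.3 CPM per kb in PBS+PBS, and Samhd1, at 8.15 CPM per kb. Trim25 encodes the ubiquitin ligase that activates the RNA sensor RIG-I, and Samhd1 a hydrolase that depletes the nucleotides needed by viruses. With TNF, the order per kilobase in PBS+TNF was Trim25 (19.6 CPM per kb), Parp14 (11.7), Dtx3l (9.03), Samhd1 (7.72) and Parp9 (6.90). The classical interferon-stimulated genes stayed low there: Isg15 reached 2.40 CPM per kb, Ifit1 0.485, Oas2 0.439 and Rsad2 0.306.

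TNF after PBS raised 17 of the 30 tested members and lowered none (edgeR quasi-likelihood test, adjusted p under 0.05 over all tested genes), whereas 7.15% of the 11809 genes tested were called higher and 5.35% lower. The median log2 fold change over the 30 members was 1.67, against -0.03 over all tested genes, and 28 of 30 were above 0. Among the 25 members that passed the filter without help from the PBS+TNF libraries, 15 were called. Without any filter, 15 of all 34 were called, against 3.23% of genes, and with TNF after DEX none was (0.0279% of genes). The 4 PBS+TNF libraries lay above the 4 PBS+PBS libraries for 22 of 30 members, which was the case for 10.8% of genes.

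Ifit1, which binds viral RNA caps and blocks their translation, showed the largest fold change of the 30 tested members, and it passed the filter only through the PBS+TNF libraries. It was at 0, 0.447, 0.374 and 0.126 CPM in PBS+PBS 1 to 4 and at 5.01, 3.62, 2.81 and 2.97 CPM in PBS+TNF 1 to 4. The groups were fully separated, with a log2 fold change of 3.76 ± 0.73 (SE, adjusted p = 0.00389), although the PBS+PBS value rested on 15 counts in all. Parp14, an ADP-ribosyltransferase, was second, at 7.88, 7.53, 11.2 and 7.91 CPM in PBS+PBS and 106, 145, 84.2 and 112 CPM in PBS+TNF. No PBS+TNF library came near the PBS+PBS range. Its log2 fold change was 3.69 ± 0.64 (adjusted p = 0.00203). Usp18, the protease that removes ISG15 from proteins and silences the type I interferon receptor, followed, at 0.343, 2.94, 1.82 and 1.63 CPM in PBS+PBS and 13.3, 9.59, 12.5 and 12.9 CPM in PBS+TNF. These groups did not overlap either, and the log2 fold change was 2.81 ± 0.49 (adjusted p = 0.00200).

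Parp9 and Dtx3l, whose products act as a pair in which Dtx3l is the ubiquitin ligase, rose by log2 fold changes of 2.22 ± 0.28 (adjusted p = 0.000417, the lowest of any member) and 2.50 ± 0.46 (adjusted p = 0.00279). Parp14 (chr16:35653231-35692003) lies on the same chromosome as Dtx3l (chr16:35746881-35759521) and Parp9 (chr16:35758840-35792980). Herc6, the ligase that attaches ISG15 in mice, rose by 2.52 ± 0.54 (adjusted p = 0.00674), from 1.37, 1.09, 1.07 and 1.38 CPM to 6.74, 8.38, 7.73 and 5.15 CPM. Trim21, a ubiquitin ligase that recognizes antibody-coated virus, rose by 1.23 ± 0.30 (adjusted p = 0.0119), from 1.88, 3.83, 3.68 and 3.52 CPM to 7.13, 9.28, 6.82 and 7.13 CPM. Trim30a, a rodent Trim gene, was called at an adjusted p of 0.0490, at 0.171, 0.702, 0.534 and 0 CPM against 2.12, 1.81, 2.18 and 1.88 CPM (log2 fold change 2.36 ± 0.75). Each of these genes was higher in all 4 PBS+TNF libraries than in any PBS+PBS library. Isg15 itself was at 0.171 to 0.638 CPM and 1.09 to 3.27 CPM, also without overlap, but did not pass the test (2.24 ± 0.79, adjusted p = 0.0717). Parp12, with 0.56 ± 0.25, and Trim25 did not pass it either.

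Of the sensors and effectors some were called and others were not. Zbp1, which senses Z-form nucleic acids and can start necroptosis, rose from 9.42, 7.15, 8.54 and 11.1 CPM to 29.3, 30.9, 29.3 and 21.2 CPM (1.62 ± 0.42, adjusted p = 0.0184). Eif2ak2, the kinase PKR that halts translation on double-stranded RNA, rose by 1.55 ± 0.30 (adjusted p = 0.00330), and Adar, which edits double-stranded RNA, by 1.08 ± 0.30 (adjusted p = 0.0244). Dhx58, the RNA helicase LGP2, was called at an adjusted p of 0.0488, and its relative Ifih1, the sensor MDA5, missed the threshold at 0.0539. Ifih1 was nevertheless fully separated, at 21.6, 28.7, 27.3 and 21.0 CPM against 49.3, 52.5, 39.9 and 43.0 CPM (0.90 ± 0.30). Of the oligoadenylate synthetase genes, whose products sense double-stranded RNA, Oas3 (2.36 ± 0.72, adjusted p = 0.0392) and Oasl2 (1.27 ± 0.33, adjusted p = 0.0173) were called. Oas1a (0.52 ± 0.30), Oas2 (2.33 ± 0.87) and Oasl1 (0.05 ± 0.25) were not. Among the others, Rtp4, a chaperone of cell surface receptors, Cmpk2, a mitochondrial nucleotide kinase, and Ifi35 were called. Ifi35 overlaps Vat1 on the opposite strand, which had 11436 counts against its 2103, and whether counting used strand is not stated. Rsad2, the neighbour of Cmpk2 and the source of an antiviral nucleotide, was separated but not called (2.10 ± 0.75, adjusted p = 0.0755).

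Some abundant members did not pass the test. Samhd1, one of the most abundant members, was at 69.6, 82.9, 85.1 and 60.9 CPM in PBS+PBS and 42.2, 90.3, 72.7 and 77.5 CPM in PBS+TNF, with a log2 fold change of -0.08 ± 0.24 (adjusted p = 0.896). The PBS+TNF libraries both exceeded and undercut the PBS+PBS libraries. Trim25 was at 90.2, 80.8, 83.2 and 51.4 CPM and at 95.7, 135, 101 and 119 CPM, a log2 fold change of 0.56 ± 0.21 (adjusted p = 0.0872) with no overlap between the groups. Ifi27 (-0.17 ± 0.29), Bst2 (0.20 ± 0.36) and Oasl1 overlapped between the groups.

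**Figure D2:**
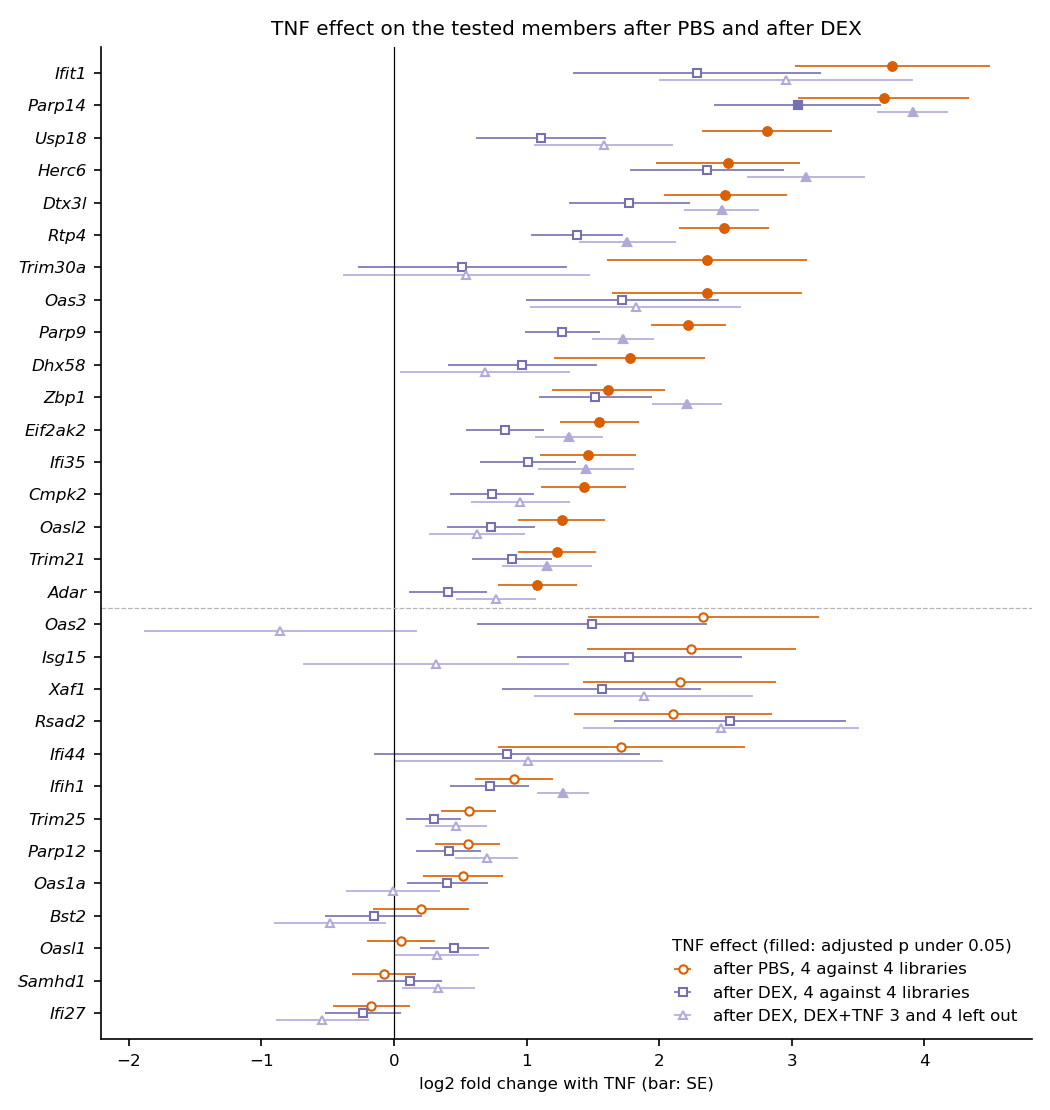
Log2 fold change with TNF (x axis, bars SE) of the 30 tested genes after PBS (circles), after DEX (squares), and after DEX with DEX+TNF 3 and 4 left out (triangles), with filled symbols for an adjusted p under 0.05. After DEX 1 square is filled, that of Parp14, and 10 triangles are.

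With DEX alone none of the 30 members was called (DEX+PBS versus PBS+PBS), by edgeR or by DESeq2. Of all tested genes, edgeR called 0.00847% higher and 0% lower, and DESeq2 0.0281% and 0%. Of the genes taken as checks of DEX, edgeR called Sgk1 (3.76 ± 0.50, adjusted p = 0.00998). Fkbp5 (2.27 ± 0.44, adjusted p = 0.282) and Tsc22d3 (0.88 ± 0.37) were not called, though their groups did not overlap. The lack of calls is thus no evidence that the members were unchanged. By edgeR 2 members had an unadjusted p under 0.05, as had 1.9% of all genes. The median log2 fold change was -0.25, against -0.02 over all genes, and 6 of 30 values were above 0. Oasl1, an inhibitor of Irf7 translation, was the only member whose groups did not overlap, at 5.14, 6.001, 5.39 and 5.02 CPM in PBS+PBS and 3.28, 3.38, 1.95 and 3.82 CPM in DEX+PBS (-0.78 ± 0.26, unadjusted p = 0.00761, adjusted p = 1.00). The same lack of overlap downwards was seen for 0.881% of genes. Rtp4 had a log2 fold change of -0.76 ± 0.35. Ifit1 was at 0.121, 0.0603, 0.115 and 0 CPM in DEX+PBS, or 3 counts in all, and its ratio of DEX+PBS to PBS+PBS was 0.203 with an exact 95% interval of 0.0377 to 0.718, which covers counting error only.

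After DEX, TNF raised 1 member past the threshold, Parp14 (DEX+TNF versus DEX+PBS), where 0.322% of all genes were called higher, and lowered none (0.0169% of genes). DESeq2 called 6 members higher, against 1.67% of genes. The levels of Parp14 were 6.55, 9.04, 4.47 and 6.93 CPM in DEX+PBS and 106, 98.8, 6.63 and 13.2 CPM in DEX+TNF, so that DEX+TNF 1 and 2 lay within the PBS+TNF range and DEX+TNF 3 within the DEX+PBS range. The log2 fold change was 3.04 ± 0.63 with an adjusted p of 0.0488, and the call was lost without any single library except DEX+TNF 3 or 4. Of the members, 28 of 30 had a log2 fold change above 0, with a median of 0.93 against 0.03 over all genes. All DEX+TNF libraries lay above all DEX+PBS libraries for 2 of 30 members, Rtp4 and Parp9, as for 2.06% of genes. With DEX+TNF 1 and 2 alone it was 20 of 30, as for 23.2% of genes.

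Without DEX+TNF 3 and 4, 10 members were called higher after DEX: Parp14, Zbp1, Dtx3l, Parp9, Herc6, Ifih1, Eif2ak2, Rtp4, Ifi35 and Trim21. In that fit 7.20% of genes were called higher. The log2 fold changes were 3.91 ± 0.27 for Parp14 (adjusted p = 1.24e-07), 3.11 ± 0.45 for Herc6 (adjusted p = 0.000222), 2.47 ± 0.28 for Dtx3l (adjusted p = 2.75e-05), 2.21 ± 0.26 for Zbp1 (adjusted p = 3.91e-05) and 1.27 ± 0.20 for Ifih1 (adjusted p = 0.000457). Trim21, with 1.16 ± 0.34, was the least of the 10 (adjusted p = 0.0382). Ifih1 was not called after PBS over all 16 libraries, and the others were. In the fit without DEX+TNF 3 and 4 Ifih1 was called after PBS as well (0.90 ± 0.17, adjusted p = 0.00119). The 2 fits thus differ in their calls after PBS, too. Of the 17 members called with TNF after PBS over all 16 libraries, the other 8 did not pass after DEX without DEX+TNF 3 and 4. These were Ifit1 (2.95 ± 0.96, adjusted p = 0.0594), Usp18 (1.58 ± 0.52, adjusted p = 0.0657), Cmpk2, Adar, Oas3, Oasl2, Dhx58 and Trim30a. The fit without DEX+TNF 3 and 4 compared 2 with 4 libraries after DEX and took the spread from all 14. The 2 libraries it left out were those with a low TNF response, which favours the 10 calls. They do not show that these genes keep their induction.

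**Figure D3:**
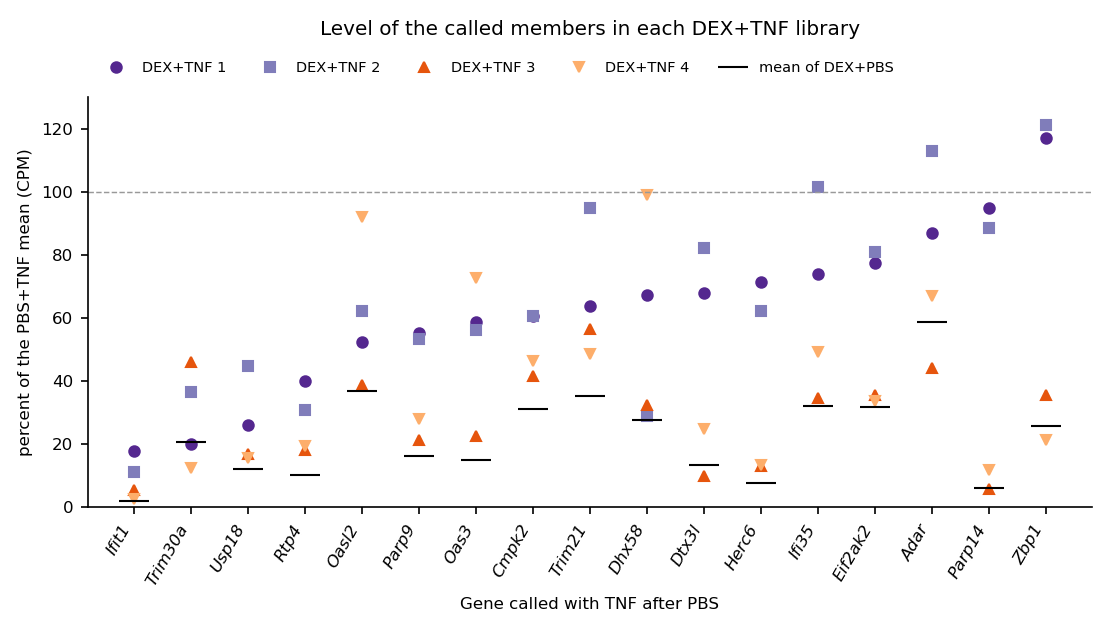
Level of the 17 genes called with TNF after PBS in each DEX+TNF library, as percent of the mean of the 4 PBS+TNF libraries (dashed line at 100%), with the DEX+PBS mean as a dash. In DEX+TNF 1 the genes run from 17.9% (Ifit1) to 117% (Zbp1), while in DEX+TNF 3 they run from 5.67% to 56.5%. The genes were selected by their high PBS+TNF values, which favours levels below the dashed line.

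Among the 17 called members, the level in DEX+TNF 1 was 17.9% to 117% of the PBS+TNF mean (median 63.8%), and in DEX+TNF 2 it was 11.2% to 121% (median 62.1%). In DEX+TNF 3 it was 5.67% to 56.5% (median 32.4%) and in DEX+TNF 4 2.77% to 98.9% (median 28.1%). In DEX+TNF 3, 16 of the 17 genes lay at or below the highest of the 8 libraries without TNF, and in DEX+TNF 4 12 did, against 2 in DEX+TNF 1 and 4 in DEX+TNF 2. The 17 genes were selected by their high PBS+TNF values, and the same libraries are the yardstick here. This favours low percentages and places below the PBS+TNF range, whatever the effect of DEX. Ifit1 and Trim30a, moreover, passed the filter only through the PBS+TNF libraries. Shares over all genes called with TNF are not given for these counts, so they describe the 17 genes only. Even within DEX+TNF 1 and 2 the genes were uneven. Both libraries were within or above the PBS+TNF range for 4 genes (Oas3, Zbp1, Parp14 and Adar), both were below it for 9 (Ifit1, Oasl2, Usp18, Dhx58, Cmpk2, Rtp4, Trim30a, Parp9 and Herc6), and for Ifi35, Dtx3l, Eif2ak2 and Trim21 only DEX+TNF 2 was within it. Oas3 was within it only through PBS+TNF 1, at 1.35 CPM, and stood at 58.7% and 56.2% of the PBS+TNF mean, below Herc6 at 71.4% and 62.4%. Of the 4 genes within the range 2 held the ISRE letters in the promoter window, and of the 9 below it 5 did. Parp9 and Dtx3l stood at 55.2% and 67.9% in DEX+TNF 1 and at 53.4% and 82.1% in DEX+TNF 2.

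Zbp1 was at 4.85, 7.84, 10.1 and 5.76 CPM in DEX+PBS and at 32.3, 33.6, 9.90 and 5.93 CPM in DEX+TNF, thus above the highest PBS+TNF library in DEX+TNF 1 and 2 and within the DEX+PBS range in DEX+TNF 3 and 4. Ifih1 was likewise high in DEX+TNF 1 and 2 only, with 23.1, 20.0, 23.1 and 20.4 CPM in DEX+PBS and 51.4, 53.0, 18.7 and 19.6 CPM in DEX+TNF. Herc6 was at 1.09, 0.482, 0.115 and 0.510 CPM in DEX+PBS and 5.001, 4.37, 0.919 and 0.947 CPM in DEX+TNF. In each of these genes DEX+TNF 1 and 2 lay above all DEX+PBS libraries, whereas DEX+TNF 3 and 4 did not. Trim21 had 2.18, 3.86, 2.41 and 2.24 CPM in DEX+PBS and 4.84, 7.20, 4.29 and 3.69 CPM in DEX+TNF. Over all 4 libraries the log2 fold changes after DEX were 1.52 ± 0.43 for Zbp1 (adjusted p = 0.149), 2.36 ± 0.58 for Herc6 (adjusted p = 0.103), 0.72 ± 0.30 for Ifih1 (adjusted p = 0.373) and 0.89 ± 0.30 for Trim21 (adjusted p = 0.243).

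**Figure D4:**
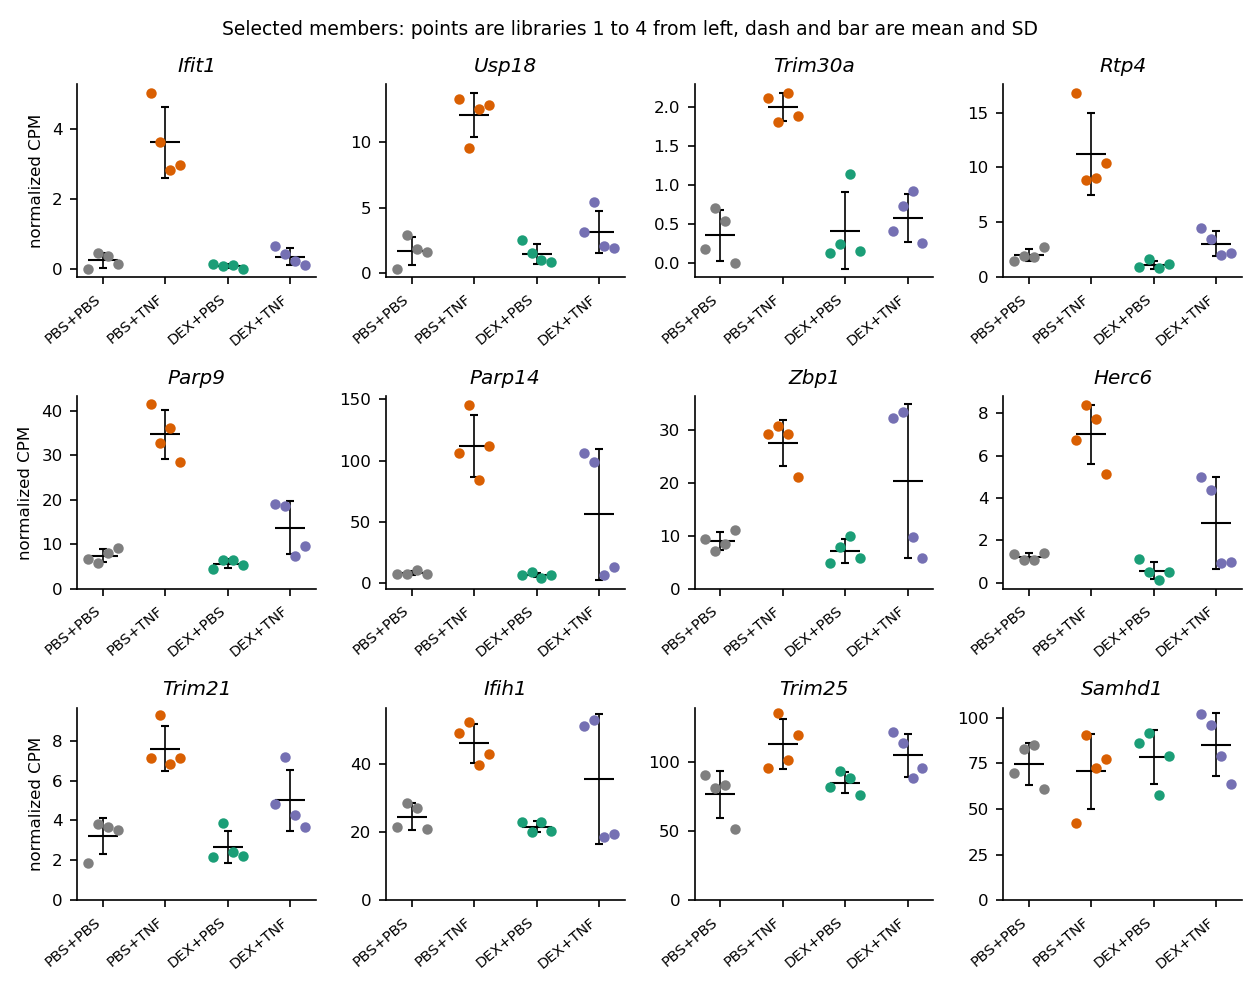
Normalized CPM of 12 genes by group, with a point for each library (1 to 4 from left) and a dash and bar for the mean and SD of 4 libraries. Ifit1, Rtp4 and Usp18 stay below the PBS+TNF points in all 4 DEX+TNF libraries, whereas Parp14, Zbp1 and Ifih1 divide into a high and a low pair.

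Compared directly in TNF-injected mice (DEX+TNF versus PBS+TNF), 2 of 30 members were lower after DEX, Rtp4 and Parp9, and none higher, where 0.119% of all genes were called lower and 0.22% higher. DESeq2 called 4 members lower, against 0.714% of genes. The median log2 fold change of the members was -0.81, against 0.03 over all genes, and 1 of 30 values was above 0, that of Samhd1. The DEX+TNF libraries lay below all PBS+TNF libraries for 9 of 30 members, as for 2.91% of genes. These were Ifit1, Rsad2, Usp18, Xaf1, Cmpk2, Rtp4, Trim30a, Parp9 and Herc6. Of the 25 members that passed the filter without the PBS+TNF libraries, 6 were among them. With DEX+TNF 1 and 2 alone the count was 16 of 30, as for 11.7% of genes. Rtp4 was at 16.8, 8.86, 8.999 and 10.4 CPM in PBS+TNF, at 4.52, 3.48, 2.04 and 2.19 CPM in DEX+TNF, and at 0.971, 1.63, 0.802 and 1.17 CPM in DEX+PBS. All 4 DEX+TNF libraries thus lay below PBS+TNF and above DEX+PBS, but DEX+TNF 3 and 4 were within the PBS+PBS range. The log2 fold change against PBS+TNF was -1.87 ± 0.33 (adjusted p = 0.0295). Parp9 was at 41.4, 32.7, 36.1 and 28.4 CPM in PBS+TNF, at 19.1, 18.5, 7.45 and 9.72 CPM in DEX+TNF and at 4.37, 6.51, 6.41 and 5.35 CPM in DEX+PBS (-1.33 ± 0.27, adjusted p = 0.0457). Again all 4 lay between those groups, and DEX+TNF 3 was within the PBS+PBS range. Both calls were lost without any 1 of the PBS+TNF libraries and without DEX+TNF 3 or 4. That of Parp9 was also lost without PBS+PBS 1, 2 or 3, without any 1 of the DEX+PBS libraries and with the replicate block, and held in 9 of 25 alternatives, against 16 of 24 for Rtp4. With DEX+TNF 3 and 4 both left out the values were -1.47 ± 0.37 (adjusted p = 0.269) and -0.87 ± 0.24 (adjusted p = 0.313), and edgeR called no member and 0% of genes. In that fit 8 members had an unadjusted p under 0.05. The share of all genes under that cut is not given for it, so the 8 cannot be set against a background.

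The counting of Parp9 carries a limit of its own, since 2 genes on the opposite strand overlap it. Dtx3l had 5200 counts and the non-coding gene Gm15564 11348 counts over all libraries, against 3276 for Parp9. Gm15564 ran from 20.2 to 105 CPM in PBS+TNF and from 23.4 to 106 CPM in DEX+TNF, and was not called in either direction (0.58 ± 0.72). Dtx3l moved in the same directions as Parp9. Its log2 fold change was 2.50 ± 0.46 with TNF after PBS and -1.11 ± 0.44 (adjusted p = 0.319) in DEX+TNF versus PBS+TNF. The part of shared reads in the Parp9 values was not tested.

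Ifit1 had the lowest log2 fold change in this comparison, -3.40 ± 0.72 (adjusted p = 0.0530), with 0.645, 0.404, 0.204 and 0.0997 CPM in the DEX+TNF libraries. The highest of these was less than the lowest PBS+TNF value, 2.81 CPM. After DEX its TNF effect rested on 17 counts in DEX+TNF against 3 in DEX+PBS, a ratio of 5.51 with an exact 95% interval of 1.59 to 29.4 for counting error only, and the test between libraries did not pass (adjusted p = 0.375). Usp18 was at 3.15, 5.42, 2.04 and 1.89 CPM in DEX+TNF and 2.55, 1.51, 1.03 and 0.816 CPM in DEX+PBS, so that it, too, stayed below the PBS+TNF range in all 4 libraries (-1.95 ± 0.47, adjusted p = 0.0901). Trim30a was at 0.403, 0.728, 0.919 and 0.249 CPM in DEX+TNF and 0.121, 0.241, 1.15 and 0.153 CPM in DEX+PBS, with overlap between these groups and a TNF effect after DEX of 0.52 ± 0.79 (adjusted p = 0.940). Samhd1 was at 86.4, 91.4, 57.5 and 79.1 CPM in DEX+PBS and 102, 96.1, 79.3 and 63.8 CPM in DEX+TNF, and Trim25 at 81.8, 93.4, 88.3 and 76.2 CPM and 121, 114, 88.4 and 95.2 CPM. Neither differed between DEX+TNF and PBS+TNF past the threshold (0.27 ± 0.24 and -0.11 ± 0.21).

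The loss or keeping of a TNF effect is a difference of differences, tested by the interaction of DEX and TNF. No member passed, and no gene did over the whole table (edgeR, 0% of genes). Over the members 3 had an unadjusted p under 0.05, as had 5.44% of all genes, and DESeq2 called no member either, against 0.0187% of genes in each direction. The members' median was -0.56, against 0.05 over all genes, and 27 of 30 values were negative, including those of all 17 members called with TNF after PBS. Without DEX+TNF 3 and 4 the median was -0.34, 8 of 30 values were above 0, and again no member was called. In that fit 1 member had an unadjusted p under 0.05, and the share of all genes under that cut is not given. The pairwise comparisons and the interaction share their libraries, so these counts are not independent of the values above. Selecting the 17 called members by high PBS+TNF values also favours negative interaction values among them. The lowest values among the called members were those of Trim30a (-1.85 ± 1.09, adjusted p = 1.00), Usp18 (-1.70 ± 0.68, unadjusted p = 0.0226, adjusted p = 0.858) and Ifit1 (-1.47 ± 1.46, adjusted p = 1.00). Rtp4 (-1.11 ± 0.48, unadjusted p = 0.0340, adjusted p = 0.884) and Parp9 (-0.95 ± 0.39, unadjusted p = 0.0264, adjusted p = 0.877) followed. The values nearest 0 were those of Zbp1 (-0.10 ± 0.59), Herc6 (-0.16 ± 0.84) and Trim21 (-0.34 ± 0.42), and that of Parp14 was -0.65 ± 0.83. Without DEX+TNF 3 and 4, Zbp1 was at 0.59 ± 0.35, Herc6 at 0.59 ± 0.58 and Parp14 at 0.22 ± 0.35, while Trim30a was at -1.80 ± 1.22, Usp18 at -1.23 ± 0.70, Ifit1 at -0.78 ± 1.61, Rtp4 at -0.73 ± 0.49 and Parp9 at -0.49 ± 0.31. A difference between the TNF effects with and without DEX was thus not shown for any member.

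A few members were higher in DEX+TNF 3 and 4 than in DEX+TNF 1 and 2. Oas2 was at 0.242 and 0.243 CPM in DEX+TNF 1 and 2 but at 2.04 and 2.54 CPM in DEX+TNF 3 and 4, within the 0.723 to 3.17 CPM of PBS+TNF. Isg15 was at 0.323, 0.243, 1.74 and 0.947 CPM and Oas1a at 4.76, 7.60, 10.6 and 9.97 CPM in DEX+TNF 1 to 4. These 3 genes, singled out after their values were seen, were higher in the libraries with the low Nfkbia values, which also held more tuft and leukocyte marker counts. The myeloid sum, however, was lower in DEX+TNF 4 than in DEX+TNF 1 and 2. The part of those cells was not tested. Oas2 and Isg15 rested on at most 64 and 32 counts in any library.

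The pathway around the members was described from lists of genes chosen by name. Of the interferon genes themselves, 20 of 21 were listed at 0 in every library, and the last, Ifnl3, had 4 counts in all, in PBS+TNF 3 and 4. Most are near-identical Ifna copies, whose reads may have been dropped if reads matching several genes were not counted. All 6 receptor genes were tested, and 4 of 6 were called higher with TNF after PBS, where 7.15% of all genes were: Ifnar1 (1.83 ± 0.39), Ifngr1, Ifngr2 and the type III receptor chain Ifnlr1 (1.56 ± 0.42, adjusted p = 0.0203). Of the kinases and STATs 4 of 6 rose, among them Jak2 (1.62 ± 0.34) and Stat2 (1.54 ± 0.34). Of the 8 interferon regulatory factors Irf1 (2.24 ± 0.39), Irf5, Irf7 (0.87 ± 0.21) and Irf9 (1.23 ± 0.23) rose, and of 11 sensors and adaptors 6 did, such as Tlr3 (2.60 ± 0.57) and Rigi (1.04 ± 0.32). Among 8 feedback inhibitors Socs1, Socs3 and Ptpn2 rose and Irf2bp1 fell.

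After DEX, Irf5 and Socs3 were called again with TNF, also without DEX+TNF 3 and 4, and none of these upstream genes was called between DEX+TNF and PBS+TNF. Irf1, the TNF-inducible activator, was at 91.3, 101, 25.2 and 22.9 CPM in DEX+TNF, against 107 to 120 CPM in PBS+TNF and 14.8 to 23.9 CPM in DEX+PBS. DEX+TNF 1 and 2 were thus near PBS+TNF, and DEX+TNF 3 and 4 near DEX+PBS. Irf9, the DNA-binding partner of the STATs, was at 12.3, 13.9, 12.6 and 10.9 CPM, below the 19.3 to 23.1 CPM of PBS+TNF in every DEX+TNF library. Socs1, an inhibitor of Janus kinases, was at 0.565, 0.323, 0.204 and 0.199 CPM against 1.45 to 3.85 CPM.

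Of 56 other antiviral genes, 44 were tested, and 19 were called higher and 1 lower with TNF after PBS, against 7.15% and 5.35% of all genes. In DEX+TNF versus PBS+TNF, 2 of them were lower and 1 higher, against 0.119% and 0.22% of all genes. These 3 calls were lost without DEX+TNF 3 and 4, at adjusted p-values of 0.174 for Slfn2 and 0.313 for Phf11d and Tent5c. Slfn2, a regulator of T cell and interferon responses, was at 5.97, 3.86, 6.33 and 8.72 CPM in PBS+TNF and at 0.968, 0.566, 0.204 and 0.299 CPM in DEX+TNF (-3.59 ± 0.57, adjusted p = 0.0236). Phf11d had a log2 fold change of -3.23 ± 0.64 (adjusted p = 0.0375), and in both genes all 4 DEX+TNF libraries were below all PBS+TNF libraries. Tent5c fell with TNF after PBS and was higher in DEX+TNF than in PBS+TNF (2.04 ± 0.39, adjusted p = 0.0321).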

How the data were processed

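RNA was measured in sorted mouse Paneth cells, with 4 libraries in each of 4 groups. The authors deposited raw counts per Ensembl gene. The labels give the TruSeq Stranded mRNA kit, and the submitters' processing notes name FastQC 0.12, STAR 2.7.10a, DESeq2 and mm39. The counting program, its use of strand and its handling of reads that match several genes are not given in the sources used here. Gene names, positions and starts came from GENCODE M39 on the same GRCm39 build, which held 54749 of 55414 identifiers.

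Genes were filtered with filterByExpr, which left 11809, and scaled by TMM (factors 0.418 to 1.50). With edgeR 4.0.16 (quasi-likelihood, robust), the 4 group means were estimated from the 16 libraries together and compared in 5 contrasts, with Benjamini-Hochberg adjustment over all tested genes and calls at an adjusted p under 0.05. The SE is the size of the log2 fold change over the square root of F. The script was tested on simulated data. The labels call the libraries biological replicates, and no pair of a group agreed within sampling noise. By a chi-square per degree of freedom on the counts, the closest pair was DEX+TNF 1 and 2 (8.78), followed by PBS+PBS 2 and 3 (23.5). The fit without DEX+TNF 3 and 4 rests on that closest pair for its DEX+TNF group.

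The members, the gene lists and the tests were chosen with earlier results of these data known. Values in every library are given for the 3 called members with the largest TNF effect, the 3 lowest and 3 highest interaction values among called members, members called in DEX+TNF versus DEX+PBS, in DEX+TNF versus PBS+TNF or in the interaction, and the 3 most abundant tested members not called. Genes shown beyond this rule were chosen after their values were seen. The alternatives were other scaling factors, filters, DESeq2 1.42.0, only the groups compared, a replicate block, a stricter threshold of 0.01, leaving out each library, and leaving out DEX+TNF 3 and 4. Some results are not reported here.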

Additional observations from a re-analysis of the deposited data

Results flagged for a closer look

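Of 120 groups of 4 libraries, 10 held a library set apart from the other 3 by a gap that took up most of the group's range (Dixon's test at 95%), and chance gives about 1 such library in 20 groups. Trim21 had 3 of them: PBS+PBS 1 at 1.88 CPM (others 3.52 to 3.83), PBS+TNF 2 at 9.28 CPM (others 6.82 to 7.13) and DEX+PBS 2 at 3.86 CPM (others 2.18 to 2.41). In the PBS+TNF group, Oas1a was at 15.2 CPM in library 1 (others 9.11 to 10.1), Oasl1 at 7.58 CPM in library 4 (others 4.82 to 5.01) and Zbp1 at 21.2 CPM in library 4 (others 29.3 to 30.9). In the PBS+PBS group, Ifi35 was at 12.1 CPM in library 4 (others 3.60 to 5.02) and Parp14 at 11.2 CPM in library 3 (others 7.53 to 7.91). In the DEX+PBS group, Trim30a was at 1.15 CPM in library 3 (others 0.121 to 0.241) and Eif2ak2 at 11.3 CPM in library 1 (others 7.33 to 7.596). No DEX+TNF library was set apart in this way. The test looks for 1 library apart from the other 3, so it could not flag a split of DEX+TNF 1 and 2 from DEX+TNF 3 and 4.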

How the results depend on the processing

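The 17 members called with TNF after PBS became 9 at an adjusted p under 0.01, 9 with a mean of at least 5 CPM (which tests fewer genes) and 11 to 18 with 1 library left out, lowest without PBS+PBS 1. Of the 17 calls, 10 held in every other fit that tested them: Ifit1, Usp18, Cmpk2, Rtp4, Parp9, Parp14, Dtx3l, Eif2ak2, Herc6 and Trim21. Of the 13 others, 6 were called in at least 1. The 2 members lower in DEX+TNF than in PBS+TNF became 0 at the stricter threshold, with only the groups compared, and without DEX+TNF 3 and 4, 1 with a mean of at least 5 CPM, 4 with DESeq2, and 0 to 3 with 1 library left out (0 without any PBS+TNF library or without DEX+TNF 3 or 4). The 1 member higher with TNF after DEX became 0 at the stricter threshold, with upper-quartile factors, without the low-count filter and with only the groups compared, 6 with DESeq2, 10 without DEX+TNF 3 and 4, and 0 to 6 with 1 library left out (6 without DEX+TNF 3 or 4, 0 without any other). With DEX alone and in the interaction the count was 0 in every fit run. The cause of these changes was not tested.

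With the replicate number as a block (replicate block), the counts were 17 with TNF after PBS, 1 in DEX+TNF versus PBS+TNF and 0 with TNF after DEX. The labels give same-numbered libraries only the number in common, and whether they were handled together is not known. Their deviations correlated at -0.365 to 0.504 (median 0.115), above 0.1 in 12 of 24 pairs. Pairs with other numbers correlated at -0.564 to 0.486 (median -0.0615). Of 16 libraries, 7 correlated best with their own number, so a shared batch or pairing is not excluded.

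Signs turned mainly in values near 0. With 1 library left out, the TNF effect after PBS ran from -0.14 to 0.12 for Oasl1 (-0.057 with upper-quartile factors), from -0.0079 to 0.39 for Bst2, from -0.47 to 0.013 for Ifi27 and from -0.21 to 0.086 for Samhd1. The DEX effect in TNF-injected mice ran from -0.25 to 0.22 for Ifi27, and the TNF effect after DEX from -0.51 to 0.0032 for Bst2 and from -0.0069 to 0.25 for Samhd1. The interaction ran from -0.44 to 0.031 for Ifih1, from -0.45 to 0.22 for Zbp1 and from -0.59 to 0.27 for Herc6. Without DEX+TNF 3 and 4, the DEX effect in TNF-injected mice became 0.18 for Ifih1, 0.26 for Zbp1 and 0.061 for Trim25, the TNF effect after DEX -0.0076 for Oas1a and -0.86 for Oas2, and the interaction 0.37 for Ifih1, 0.59 for Zbp1, 0.22 for Parp14 and 0.59 for Herc6. Few counts per library, as for Ifit1 and Isg15, limit those values.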
